A study of Mus musculus with 12 samples.

Results

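The cadherin superfamily genes described here are the 100 protein-coding genes of the postnatal day 3 (P3) expression table whose symbols begin with Cdh and a digit, Cdhr, Pcdh or Celsr, out of 31091 genes in all and 17632 protein-coding genes. They were chosen by name and not by any measured value. They comprise 5 type I classical cadherins, 13 type II classical cadherins, 11 other cadherins, 3 Celsr (flamingo) cadherins, 12 non-clustered protocadherins and 56 clustered protocadherins, of which 13 are in the alpha, 22 in the beta and 21 in the gamma cluster.

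Cadherins are calcium-dependent adhesion proteins of the cell surface built from repeated extracellular cadherin domains. Classical cadherins bind catenins, which link them to actin, and their matching or differing types help cells to stay together or to sort apart. Clustered protocadherins are made from tandem arrays of variable first exons, each under its own promoter, and give single neurons differing surface identities, while non-clustered protocadherins act in cell sorting, axon growth and synapse formation. In the cerebellum, granule cell progenitors divide at the outer surface of the cortex and their daughters move inward along glial fibres, a course in which adhesion proteins take part.

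The RNA came from granule cell progenitors of wild-type mice (control) or of Znhit3 conditional knockout (cKO) mice. Znhit3 encodes an assembly factor of small nucleolar ribonucleoproteins. At P3 there were 3 control and 3 cKO libraries. The 6 samples of postnatal day 6 were not analysed here. The labels name no Cre driver, deleted exon or strain, and they do not say whether the libraries came from separate animals or pools, so the p-values measure the spread between these libraries, which may be technical.

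The libraries held 29119803 to 52961445 counted reads, and 3 reads in a gene of 1 kb corresponded to 0.057 to 0.10 FPKM (fragments per kilobase, scaled to library depth), a floor that covers counting error only. Znhit3 fell to 47.8% of the control level, from 8.78 ± 0.32 to 4.20 ± 0.32 FPKM (SD, n = 3 each), with an exact permutation p of 0.1, the smallest that 3 against 3 libraries allow. All 12 listed markers of granule cell progenitors were present, at means of 22.4 to 269 FPKM, and 4 of them were lower in cKO. Of 11 tested markers of differentiating granule neurons, 7 were lower and none was higher, with a median difference of -0.31, and their summed level went from 956 to 1017 FPKM in control to 771 to 782 FPKM in cKO. The part of this fall in the differences of the family was not tested. RNA of other cell types was present in both groups and moved between them: 11 of 12 endothelial, 7 of 8 mural, 6 of 7 oligodendrocyte, 5 of 8 microglial, 4 of 10 astrocyte and Bergmann glia and 9 of 11 GABAergic interneuron markers were higher in cKO, and 5 of 7 choroid plexus and ependyma markers were lower. Also higher were 4 of 5 red blood cell, 3 of 4 Purkinje cell and 3 of 8 meninges and fibroblast markers. The same held for 1 of 3 markers of unipolar brush cells and nuclear neurons. In such bulk samples fewer cells of a type and less RNA per cell cannot be told apart. Of 5 listed sex-linked genes 4 were higher and 1 was lower in cKO, and the part of the sexes of the animals in the other differences was not tested.

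All differences are given as cKO minus control in log2(FPKM + 1), a scale that shrinks the change of low genes. They carry standard errors (SE) from limma, fitted to every gene whose mean reached 1 FPKM. A gene is called higher or lower where the limma p, adjusted by Benjamini-Hochberg over those 13538 genes, is under 0.05. Of the 100 cadherin superfamily genes, 56 reached the level for a test. Of these, 9 were higher in cKO, 2 were lower and 45 were not called. The share called higher among all tested genes was 13.4% and the share called lower was 5.74%, against 16.1% and 3.57% of the tested family members, shares near the background. The 3 cKO values lay above the 3 control values in 21 of the 56 and below them in 4, where the shares over all tested genes were 27.3% and 13.2%. The median difference of the 56 was 0.10, beside 0.03 over all tested genes. By the authors' deposited table, in which 82 of the 100 were tested, 10 were higher and 4 were lower, against 11.4% and 11.6% of all genes tested there.

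**Figure D1:**
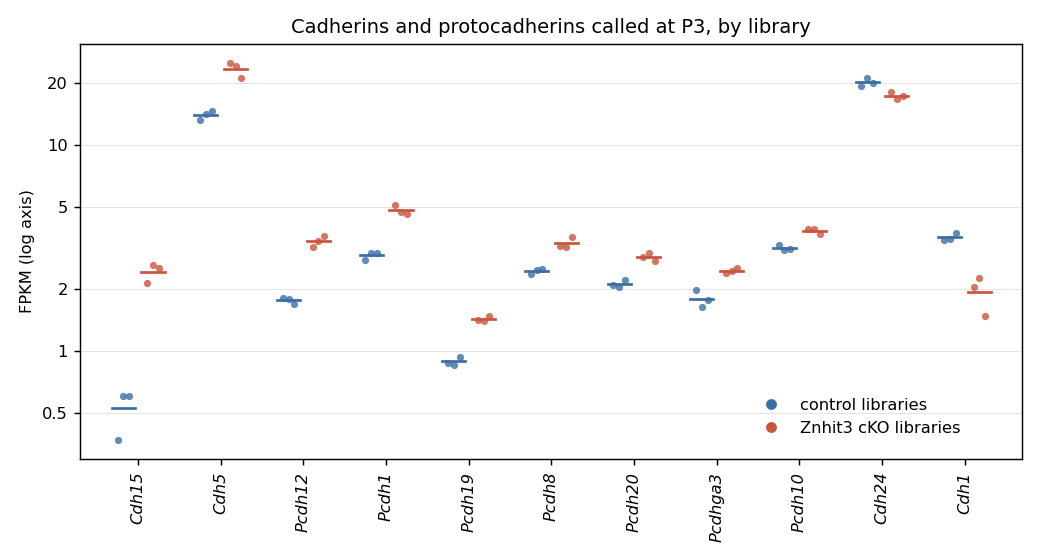
FPKM on a log axis of the 11 called cadherin superfamily genes in each of the 3 control libraries (blue) and 3 cKO libraries (red), with bars at the group means. The groups do not overlap for any of the 11, which were called from these same values. Over all tested genes 27.3% were separated upward and 13.2% downward. The widest gap on the log axis is that of Cdh15, at 0.370 to 0.610 FPKM in control and 2.14 to 2.63 FPKM in cKO.

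The order of levels was nearly the same in both groups. Among the 100 genes Celsr2 (32.1 FPKM on average over the 6 libraries), Cdh2 (30.7 FPKM), Cdh20 (25.7 FPKM), Cdh5 and Cdh24 (18.9 FPKM each) and Celsr3 (18.0 FPKM) stood highest per length, and 44 genes had a mean under 1 FPKM. Spearman's rho between the control and cKO means was 0.98 over the 100 genes, as a description of libraries that share their gene lengths and counting. Apart from Cdh5 and Cdh24, the most abundant of these genes differed by less than the test could call. Most of the called genes lay between 1 and 5 FPKM.

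**Figure D2:**
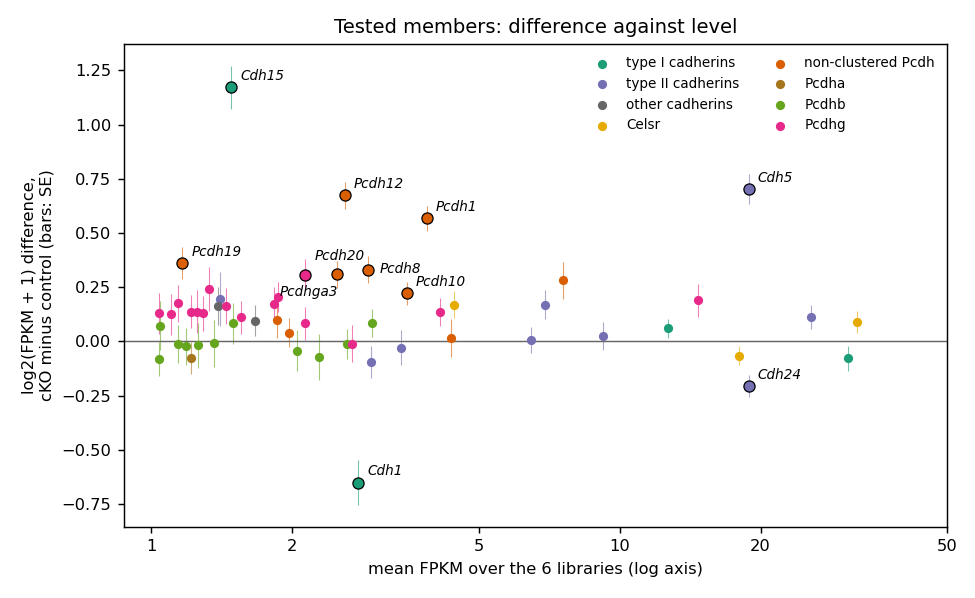
Difference on the log2(FPKM + 1) scale (cKO minus control, bars are SE) against the mean FPKM over the 6 libraries on a log axis, for the 56 tested genes coloured by class. Ringed and named points are the 11 called genes, from Cdh15 at 1.17 to Cdh1 at -0.65.

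Among the 5 type I classical cadherins, 1 rose and 1 fell, while the abundant members were not called. Cdh15 encodes M-cadherin, the cadherin of muscle precursors that is also known from cerebellar granule cells. It rose 4.62-fold, the largest change of any cadherin and the 6th largest rise among all 13538 tested genes on the log2(FPKM + 1) scale. Cdh1, which encodes E-cadherin of epithelia, fell to 0.541 of the control level.

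Cdh15 (ENSMUSG00000031962, chromosome 8, 123574705 to 123594136, plus strand, in the positions of the deposited table, whose build is not stated) measured 0.370, 0.610 and 0.604 FPKM in control and 2.14, 2.63 and 2.55 FPKM in cKO. All cKO values were far above all control values, and the spread within each group was small beside the gap. The means were 0.528 ± 0.137 and 2.44 ± 0.26 FPKM (SD, n = 3 each), the difference was 1.17 ± 0.10 (SE) and the adjusted limma p was 0.00061. The gene rested on 49 to 344 reads per library and reached the level for a test only through the cKO libraries. The authors' deposited table gave a log2 fold change of 2.15.

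Markers of the skeletal muscle lineage, a list added after values were seen, were set beside Cdh15, and only some of them rose. Of the 11 matched genes of the list 3 were tested and 2 of these were called higher, with a median of 0.40. All 3 had every cKO value above every control value, beside 27.3% of all tested genes. The authors' deposited table tested 6 of the list and called 4 higher and none lower, beside 11.4% of all genes higher there. The summed level of the list went from 16.1 to 18.1 FPKM in control to 25.9 to 27.8 FPKM in cKO. Pax3 alone made up 61.8% of that sum, so the sum mostly follows 1 gene. Myog, a transcription factor of muscle differentiation that was too low for the test, measured 0.211 ± 0.044 FPKM in control and 1.34 ± 0.08 FPKM in cKO. The genes of contractile muscle were low in both groups, with Acta1 at 0.278 and 0.254 FPKM and Myh3 at 0.337 and 0.294 FPKM, and Myf6 was listed at 0 in the 3 cKO libraries. The part of muscle lineage cells in the rise of Cdh15 was not tested.

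Cdh1 (ENSMUSG00000000303, chromosome 8, 107329983 to 107396878, plus strand) measured 3.48, 3.52 and 3.76 FPKM in control and 2.06, 2.27 and 1.49 FPKM in cKO. The cKO libraries were all lower and more scattered than the control libraries. The mean went from 3.59 ± 0.15 to 1.94 ± 0.41 FPKM (SD, n = 3 each), a difference of -0.65 ± 0.10 (SE) with an adjusted limma p of 0.0054. Cdh3, the neighbouring P-cadherin gene, was too low for the test and measured 0.515, 0.565 and 0.594 FPKM in control and 0.359, 0.323 and 0.376 FPKM in cKO. Its groups did not overlap, and the authors' deposited table called it lower at a log2 fold change of -0.72.

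Beside Cdh1, the choroid plexus and ependyma list had a median difference of -0.81 over its 7 tested genes. Its summed level went from 1353 to 1439 FPKM in control to 641 to 719 FPKM in cKO. Ttr alone made up 96.9% of that sum, so the sum mostly follows 1 gene. Of 4 tested epithelial genes, in a list added after values were seen, Krt18 and Cldn1 were lower and Cldn2 and Cldn3 were not called. The epithelial adhesion gene Epcam was not tested, at 0.524 FPKM in control and 0.773 FPKM in cKO, and Krt14 was listed at 0 in 5 libraries. The part of epithelial cells in the fall of Cdh1 was not tested.

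Cdh2 encodes N-cadherin, the main classical cadherin of neural tissue. It measured 33.6, 29.7 and 31.6 FPKM in control and 31.3, 28.2 and 30.1 FPKM in cKO, so the groups overlapped. Its difference was -0.08 ± 0.06 (SE), with an adjusted limma p of 0.37. Cdh4, which encodes R-cadherin, stood at 12.4 ± 0.2 FPKM in control and 13.0 ± 0.4 FPKM in cKO (SD, n = 3 each) and was not called either, with an adjusted limma p of 0.36.

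The 13 type II cadherins divided in the same way into 1 gene higher, 1 gene lower and 7 not called, with 4 under the level for a test. Cdh5 encodes VE-cadherin, the cadherin of endothelial junctions. It rose 1.67-fold and was the most abundant gene of the family to be called higher. Cdh24, a less studied type II cadherin, fell to 0.860 of the control level.

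Cdh5 (ENSMUSG00000031871, chromosome 8, 104828257 to 104871143, plus strand) measured 13.3, 14.2 and 14.8 FPKM in control and 25.2, 24.4 and 21.3 FPKM in cKO. The lowest cKO value was well above the highest control value. The means were 14.1 ± 0.7 and 23.6 ± 2.0 FPKM (SD, n = 3 each), the difference was 0.70 ± 0.07 (SE) and the adjusted limma p was 0.0010. A gene on the opposite strand, Gm29682, overlaps Cdh5, and reads of the pair cannot be told apart where strand was not used in counting.

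Cdh24 (ENSMUSG00000059674, chromosome 14, 54868688 to 54878821, minus strand) measured 19.5, 21.2 and 20.1 FPKM in control and 18.2, 16.7 and 17.5 FPKM in cKO. The cKO values were lower by a small and even margin. The difference was -0.21 ± 0.05 (SE), with an adjusted limma p of 0.026. The call was lost without control replicate 2 (adjusted limma p 0.082), control replicate 3 (0.065), cKO replicate 2 (0.098) or cKO replicate 3 (0.065).

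Cdh20, the most abundant type II cadherin, measured 26.5, 23.4 and 24.0 FPKM in control and 27.8, 26.3 and 25.9 FPKM in cKO. The groups overlapped, and the difference of 0.11 ± 0.06 (SE) was not called (adjusted limma p 0.19). The other tested members, Cdh6, Cdh7, Cdh8, Cdh10, Cdh11 and Cdh22, had differences from -0.10 for Cdh10 to 0.20 for Cdh6. Their control means ran from 1.25 FPKM for Cdh6 to 9.13 FPKM for Cdh11, and their adjusted limma p-values from 0.11 for Cdh22 to 0.94 for Cdh8. Cdh9, Cdh12, Cdh18 and Cdh19 were under the level for a test.

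**Figure D3:**
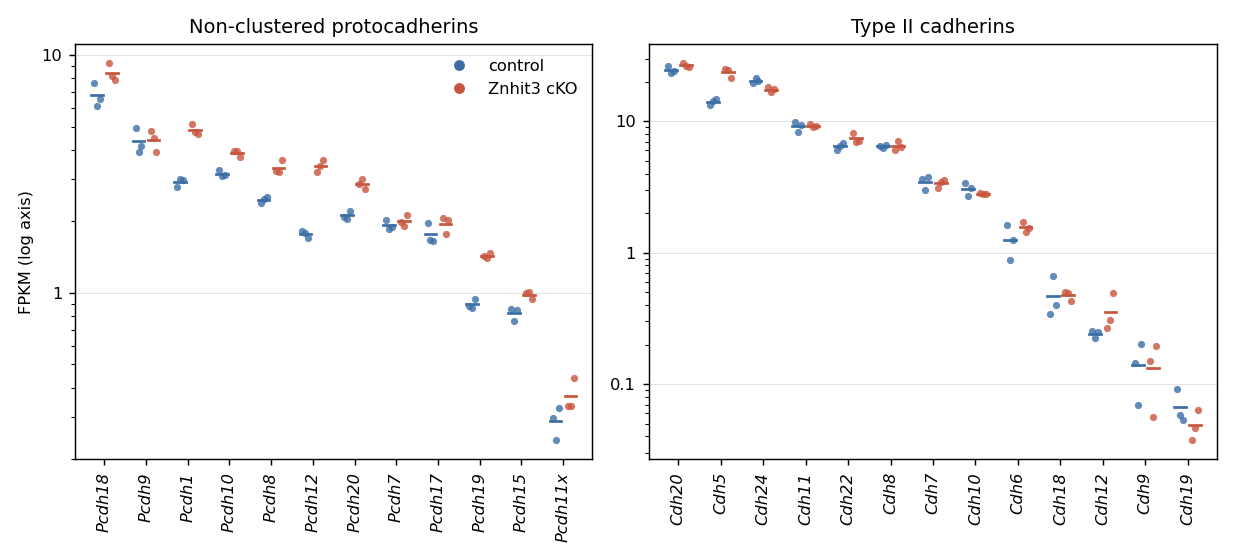
FPKM on log axes of the 12 non-clustered protocadherins (left) and the 13 type II cadherins (right) in each control (blue) and cKO (red) library, with bars at the group means and genes ordered by level. On the left the cKO values all lie above the control values for the called Pcdh1, Pcdh8, Pcdh10, Pcdh12, Pcdh19 and Pcdh20 and also for Pcdh11x, Pcdh15 and Pcdh18, which were not called or not tested. On the right they do so for the called Cdh5 and for Cdh12 and Cdh22, and they all lie below for the called Cdh24.

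The non-clustered protocadherins held most of the rises. Of 12 genes 10 were tested, 6 of these rose and none fell, and the difference was above 0 in all 10. Over all 13538 tested genes 13.4% were called higher, and 7839 had a difference above 0. Their median was 0.30, beside 0.03 over all tested genes. The median stayed between 0.22 and 0.38 under the alternative settings, with at least 8 of 10 above 0 under each setting that tested them all. Pcdh19 reached the level for a test only through the cKO libraries. The summed level of the class went from 29.2 ± 1.6 to 37.9 ± 1.2 FPKM (SD, n = 3 each).

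Pcdh12, which encodes VE-cadherin-2, a protocadherin of endothelial cells, showed the largest rise of the class. It measured 1.82, 1.79 and 1.70 FPKM in control and 3.22, 3.42 and 3.62 FPKM in cKO. Every cKO value was well above every control value. The ratio of the means was 1.93, the difference was 0.67 ± 0.06 (SE) and the adjusted limma p was 0.00093, on 350 to 835 reads per library. The gene (ENSMUSG00000024440) lies on chromosome 18, 38400142 to 38417455, minus strand.

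Cdh5 and Pcdh12, the cadherin and the protocadherin of endothelium in the family, moved by amounts near those of the endothelial markers on the log2(FPKM + 1) scale. That scale shrinks the change of Pcdh12, at 1.77 and 3.42 FPKM, more than the changes of abundant markers. The 12 tested markers, which include Pecam1, Cldn5 and Kdr but neither of these genes, had differences from 0.21 to 0.85 with a median of 0.66, and 11 of 12 rose. Their summed level went from 148 to 161 FPKM in control to 257 to 270 FPKM in cKO, and none was at 0 in any library. The part of endothelial cells in the rises of Cdh5 and Pcdh12 was not tested.

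**Figure D4:**
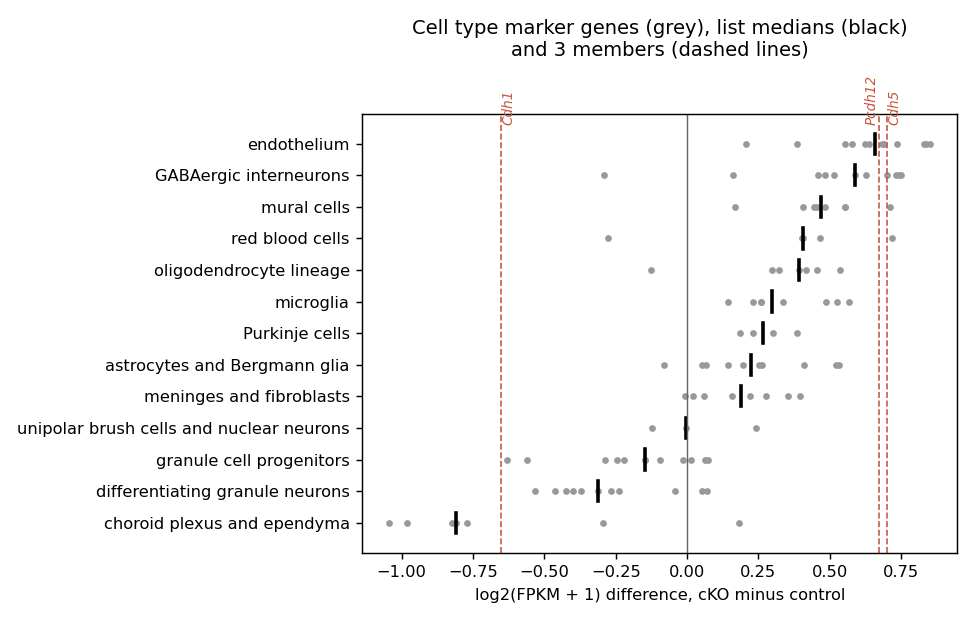
Differences on the log2(FPKM + 1) scale (cKO minus control) of tested cell type marker genes (grey points) with the median of each list (black bars). Dashed lines mark Cdh1 at -0.65, Pcdh12 at 0.67 and Cdh5 at 0.70, and the endothelial median is 0.66.

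Pcdh1, a delta-1 protocadherin, was 1.65-fold higher in cKO. It measured 2.79, 3.02 and 2.99 FPKM in control and 5.11, 4.75 and 4.64 FPKM in cKO, with no overlap. The difference was 0.57 ± 0.06 (SE), with an adjusted limma p of 0.0011. It overlaps 2010320O07Rik on the opposite strand. Of the other delta-1 genes, Pcdh7 and Pcdh9 were not called, with differences of 0.04 ± 0.07 and 0.02 ± 0.09 (SE) and overlapping groups. The difference of Pcdh9 was -0.07 under quantile normalization. Pcdh11x was under the level for a test, at 0.240 to 0.328 FPKM in control and 0.334 to 0.438 FPKM in cKO, with no overlap.

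The delta-2 protocadherins act through a conserved intracellular part that can recruit the WAVE complex, a regulator of actin branching. All 5 were tested, and 3 of them, Pcdh8, Pcdh10 and Pcdh19, rose. Pcdh8 measured 2.39, 2.48 and 2.52 FPKM in control and 3.25, 3.21 and 3.61 FPKM in cKO, a difference of 0.33 ± 0.06 (SE) with an adjusted limma p of 0.010. The control values were tightly grouped and all below the cKO values.

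Pcdh10 measured 3.27, 3.09 and 3.14 FPKM in control and 3.93, 3.93 and 3.72 FPKM in cKO, without overlap. Its difference of 0.22 ± 0.05 (SE) was the smallest among the called rises (adjusted limma p 0.026). The call was lost without control replicate 2 (adjusted limma p 0.076), control replicate 3 (0.077), cKO replicate 1 (0.061) or cKO replicate 2 (0.094), and with quantile normalization (0.11). Pcdh8 overlaps Gm9748 and Pcdh10 overlaps 1700027H10Rik, both on the opposite strand.

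Pcdh18, the most abundant non-clustered protocadherin, measured 7.63, 6.08 and 6.54 FPKM in control and 9.26, 8.14 and 7.82 FPKM in cKO. The cKO values were above the control values, but control replicate 1 came near to them. The difference of 0.28 ± 0.09 (SE) was not called, with an adjusted limma p of 0.056, while the authors' deposited table called it higher at a log2 fold change of 0.26. Without control replicate 1 it was 0.36 with an adjusted limma p of 0.027. Pcdh17, the fifth delta-2 gene, had a difference of 0.10 ± 0.08 (SE) and overlapping groups.

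Pcdh19, a gene of the X chromosome whose loss in mosaic form causes an epilepsy of females, was 1.60-fold higher in cKO. It measured 0.883, 0.862 and 0.944 FPKM in control and 1.43, 1.40 and 1.48 FPKM in cKO, on 291 to 591 reads per library. The groups were far apart beside their spread. The difference was 0.36 ± 0.07 (SE) and the adjusted limma p was 0.015, or 0.0505 without cKO replicate 2. The other X-linked member, Pcdh11x, was not tested, at 0.288 ± 0.045 FPKM in control and 0.369 ± 0.060 FPKM in cKO (SD, n = 3 each). Sex-linked genes also differed between the groups, with Xist at 53.7 and Ddx3y at 5.28 FPKM in control against 24.0 and 12.4 FPKM in cKO. The part of the sexes of the animals in the rise of Pcdh19, or in any other difference between the groups, was not tested.

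Pcdh20 is a non-clustered protocadherin outside the delta classes. It measured 2.09, 2.05 and 2.22 FPKM in control and 2.86, 3.00 and 2.73 FPKM in cKO, without overlap. The difference was 0.31 ± 0.06 (SE) with an adjusted limma p of 0.013, or 0.059 without cKO replicate 2. Pcdh15, a cadherin of hair cells and photoreceptors, was just under the level for a test, at 0.823 and 0.983 FPKM.

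RefSeq promoter windows were at hand for 29 of the 100 genes. They are placed on GRCm38.p6, which the gene positions of the deposited table do not match, so the positions cannot be set side by side. The windows of the 3 delta-2 genes that rose are printed to let their upstream sequence be compared, with that of Cdh24, which fell. Each line gives the bases up to the start of transcription, 250 or the part of them that no annotated exon covers, with capitals on any CANNTG (the E-box, which reads the same on both strands) and any TATAAA (the TATA box, searched on both strands). The Pcdh8 sequence is chr14:79771313-79771562 on the minus strand, that of Pcdh10 is chr3:45378261-45378397 on the plus strand, that of Pcdh19 is chrX:133688994-133689243 on the minus strand and that of Cdh24 is chr14:54641365-54641614 on the minus strand.
Pcdh8: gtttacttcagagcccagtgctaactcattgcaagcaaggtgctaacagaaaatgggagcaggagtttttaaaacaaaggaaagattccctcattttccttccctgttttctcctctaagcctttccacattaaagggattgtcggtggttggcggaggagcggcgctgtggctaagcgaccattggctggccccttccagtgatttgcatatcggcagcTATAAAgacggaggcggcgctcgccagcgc
Pcdh10: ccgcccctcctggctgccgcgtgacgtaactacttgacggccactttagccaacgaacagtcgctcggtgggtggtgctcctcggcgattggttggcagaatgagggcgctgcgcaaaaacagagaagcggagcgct
Pcdh19: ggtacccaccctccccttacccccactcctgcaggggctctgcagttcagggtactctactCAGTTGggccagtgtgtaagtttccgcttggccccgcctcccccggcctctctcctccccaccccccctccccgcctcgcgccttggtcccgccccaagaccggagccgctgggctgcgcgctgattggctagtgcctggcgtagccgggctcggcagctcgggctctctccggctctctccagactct
Cdh24: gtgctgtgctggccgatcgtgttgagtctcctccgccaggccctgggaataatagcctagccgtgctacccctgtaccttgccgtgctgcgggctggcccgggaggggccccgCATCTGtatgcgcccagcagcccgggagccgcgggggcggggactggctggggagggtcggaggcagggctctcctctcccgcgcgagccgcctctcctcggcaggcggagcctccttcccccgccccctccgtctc

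The promoters of the 3 risen delta-2 genes differed among themselves. Pcdh8 alone of these held a TATA box, which 12.4% of all 32851 windows of 250 bases hold, and it had 51.2% GC, near the median of 52.4% over all windows. Pcdh19 was GC-rich at 69.2% and held 1 E-box, CAGTTG, a motif found in 66.2% of windows. Cdh24 was GC-rich at 72.8% and held 1 E-box, CATCTG. The GC box GGGCGG, searched on both strands and not capitalised, occurred in Pcdh10 and Pcdh19 once each and in Cdh24 at 2 places, against 32.7% of windows with at least 1. None of the 3 motifs contains another. The printed Pcdh10 stretch has 137 bases, fewer than the 250 of the windows behind these shares. All matches are descriptions of the letters only.

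The 3 Celsr cadherins, large receptors of planar cell polarity with a role in axon guidance, were abundant and none was called. Celsr2 measured 29.9, 31.1 and 32.2 FPKM in control and 34.9, 32.9 and 31.6 FPKM in cKO, and Celsr3 18.0, 19.1 and 18.3 against 17.1, 17.9 and 17.7 FPKM. The groups overlapped for Celsr2. They nearly met for Celsr3, with all cKO values lower. The differences were 0.09 ± 0.05 and -0.07 ± 0.04 (SE). The authors' deposited table called Celsr3 lower at a log2 fold change of -0.12. Celsr1 stood at 4.12 ± 0.35 and 4.75 ± 0.08 FPKM (SD, n = 3 each), with all cKO values above the control values and an adjusted limma p of 0.089, or 0.049 without control replicate 2.

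Among the 11 other cadherins, 2 were tested and none was called. Cdh13, which encodes the membrane-anchored T-cadherin, had a difference of 0.16 ± 0.09 (SE) and Cdhr1, a photoreceptor cadherin also known from the olfactory bulb, one of 0.10 ± 0.07 (SE). Cdhr3 was the next most abundant, at 0.355 and 0.512 FPKM. The rest, Cdh16, Cdh17, Cdh23, Cdh26, Cdhr2, Cdhr4, Cdhr5 and Cdhr18, had means of at most 0.170 FPKM. Cdh16 had 0 reads in 5 libraries and 2 reads in the sixth, under the floor of 3 reads.

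The 56 clustered protocadherins lie in 3 tandem arrays on chromosome 18, and 28 of them reached the level for a test. A single one, Pcdhga3, was called. The alpha genes summed to 2.73 ± 0.21 FPKM in control and 2.48 ± 0.11 FPKM in cKO (SD, n = 3 each). The beta genes summed to 24.1 ± 0.5 and 24.4 ± 1.0 FPKM, and the gamma genes to 40.2 ± 0.2 and 46.9 ± 2.8 FPKM (SD, n = 3 each). The gene lengths used include exons shared within an array, a median of 53.5% of the bases in alpha and 44.6% in gamma genes. In beta genes the shared part is at most 9.67%, so the sums of different arrays are not on 1 scale. The gamma sums did not overlap between the groups, at 40.0 to 40.4 FPKM in control and 45.2 to 50.2 FPKM in cKO. The alpha and the beta sums overlapped.

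In the gamma array 16 of 21 genes were tested, and 15 of the 16 had a difference above 0, with a median of 0.14 and a range from -0.01 to 0.31. Over all 13538 tested genes 7839 had a difference above 0. The gamma gene below 0, Pcdhgc4, was above 0 with TPM scaling and with voom on recovered reads. Under quantile normalization 14 of the 16 were above 0, beside 6680 of all tested genes. The groups were separated upward in 9 of the 16, beside 27.3% of all tested genes. By the authors' deposited values 20 of the 21 had a positive log2 fold change. The median of the tested genes was between 0.07 and 0.25 under the alternatives that tested most of the array, where quantile normalization gave the lowest. These genes cannot be taken as independent measurements. In the GENCODE annotation of GRCm38 a median of 44.6% of the exonic bases of a gamma gene belong to other gamma genes too, because all share their last exons. How reads of the shared bases were assigned is not stated. They were not given in full to every gene, as Pcdhgb8 had 44 to 86 reads per library and Pcdhgc3 2299 to 4026.

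Pcdhga3 measured 1.99, 1.65 and 1.77 FPKM in control and 2.40, 2.45 and 2.55 FPKM in cKO. Its groups did not overlap, and the cKO values were closely grouped. The difference was 0.31 ± 0.07 (SE), with an adjusted limma p of 0.022. The call was lost without control replicate 2 (adjusted limma p 0.069), control replicate 3 (0.068), cKO replicate 2 (0.071) or cKO replicate 3 (0.065), and with quantile normalization (0.070). Beside the shared exons, 4 genes on the opposite strand overlap it.

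Pcdhgc3, a C-type isoform that is not chosen at random between neurons, made up 33.8% of the gamma sum. It measured 13.3, 13.9 and 13.8 FPKM in control and 17.8, 15.1 and 14.4 FPKM in cKO. All cKO values were higher, with cKO replicate 1 far above the others. The difference of 0.19 ± 0.07 (SE) was not called (adjusted limma p 0.11). Pcdhgb6, at 3.91 and 4.39 FPKM, and Pcdhgc4, at 2.70 and 2.67 FPKM, were the next most abundant and were not called. Within the array, all 9 tested type A genes and all 5 tested type B genes had differences above 0, as did 1 of 2 tested type C genes, counts that under quantile normalization came to 14 of the 16 in all.

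**Figure D5:**
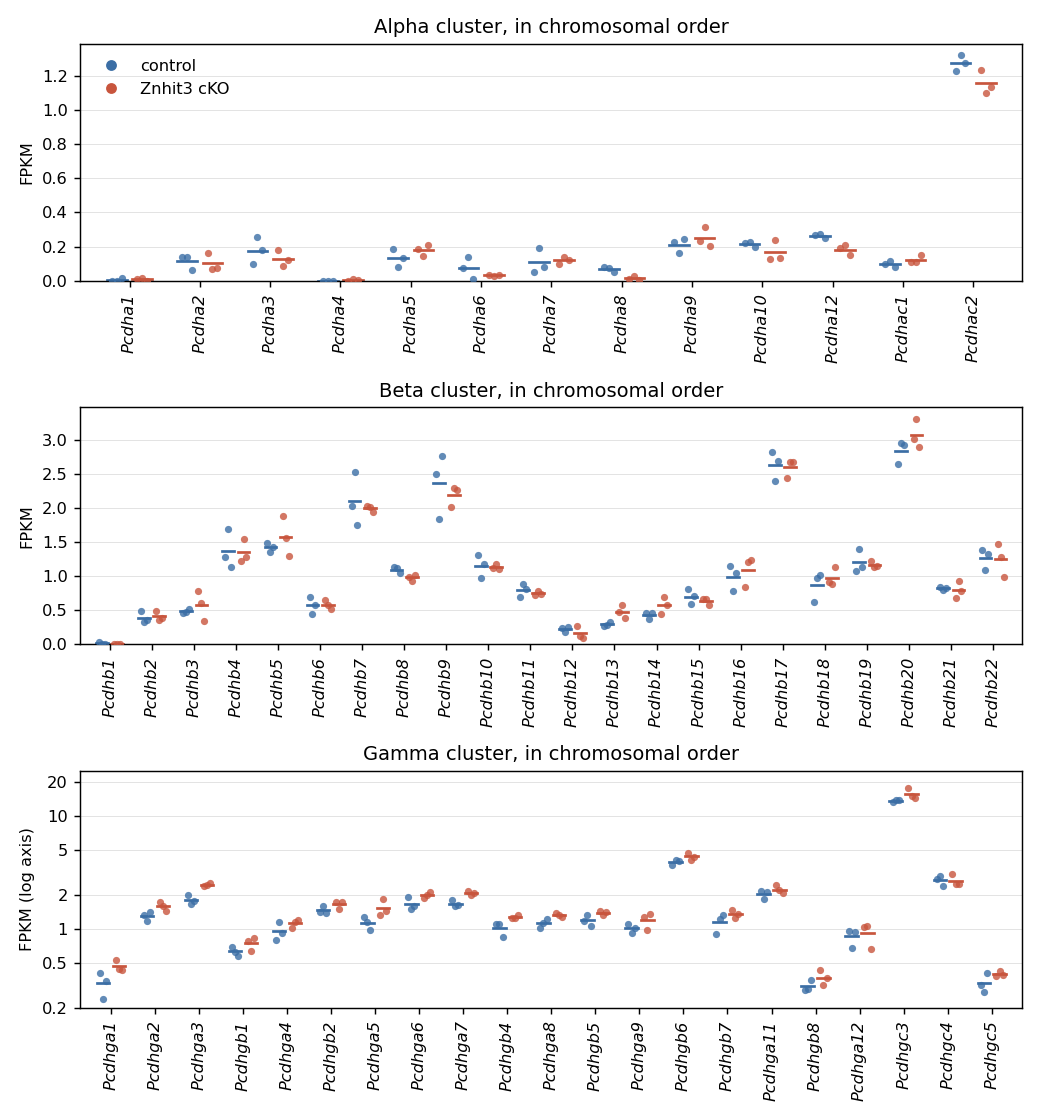
FPKM of the alpha (top), beta (middle) and gamma (bottom, log axis) protocadherin genes in chromosomal order, in each control (blue) and cKO (red) library with bars at the group means. Pcdhac2 stands far above the other alpha genes, the beta groups overlap for nearly every gene, and the gamma cKO means lie above the control means except for Pcdhgc4, whose difference is above 0 with TPM scaling or voom.

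In the beta array, whose genes are single exons that share at most 9.67% of their bases with another beta gene, 11 of 22 were tested and none was called. Of the 11, 3 had a difference above 0 and 8 one below 0, all from -0.08 to 0.09, while with TPM scaling 7 of the 11 were above 0. Over all 13538 tested genes 7839 were above 0, and 8993 with TPM scaling. The groups overlapped in all but Pcdhb8, whose cKO values were the lower. The median was -0.01, and it lay between -0.09 and 0.02 under the alternatives, so it had no steady sign. Pcdhb20 (2.84 and 3.08 FPKM), Pcdhb17 (2.64 and 2.60 FPKM) and Pcdhb9 (2.37 and 2.19 FPKM) were the most abundant. That Pcdhg and Pcdhb genes differed from each other was not tested.

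In the alpha array only Pcdhac2, a C-type gene, was tested. It measured 1.23, 1.32 and 1.27 FPKM in control and 1.24, 1.10 and 1.14 FPKM in cKO, a difference of -0.08 ± 0.07 (SE) with overlapping groups. It made up 46.7% of the alpha sum. The next most abundant, Pcdha9 (0.211 and 0.252 FPKM) and Pcdha12 (0.264 and 0.182 FPKM), were under the level for a test. Pcdha4 had 0 reads in each control library and 0 to 2 in the cKO libraries, under the floor of 3 reads. A median of 53.5% of the exonic bases of an alpha gene are shared with other alpha genes, and how reads of these bases were assigned is not stated. Most alpha genes rest on few reads.

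Genes that act with the cadherins were given from 6 lists, described by counts beside the 13.4% and 5.74% of all tested genes called higher and lower. The authors' deposited table called 2 signalling partners lower, and 1 gene lower in each of the other lists. It called 1 to 5 genes higher in each list. The shares over all genes tested there were 11.4% higher and 11.6% lower. Of 13 tested catenins and actin linkers, 2 rose and none fell, with a median of 0.06. These were Ctnnb1, which encodes beta-catenin (137 to 155 FPKM, 0.18 ± 0.05 SE, adjusted limma p 0.039), and Vcl, which encodes vinculin (2.52 to 3.23 FPKM, 0.27 ± 0.06 SE, adjusted limma p 0.021). Ctnnb1 lost its call when any 1 library was left out (adjusted limma p 0.050 to 0.12), and Vcl without control replicate 1 or 3 or cKO replicate 2 or 3 (up to 0.074). The other 11, among them the alpha-catenin gene Ctnna2, were not called. The authors' deposited table called Ctnna2 lower at a log2 fold change of -0.16.

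Of 12 genes for cadherin processing and turnover 3 rose and none fell, with a median of 0.08. They were the receptor phosphatase Ptprm (3.57 to 4.74 FPKM, adjusted limma p 0.0063), the ubiquitin ligase Cbll1, known as Hakai (5.86 to 7.30 FPKM, 0.013), and the sheddase Adam10 (35.6 to 40.3 FPKM, 0.043). The call of Cbll1 was lost without cKO replicate 2 (adjusted limma p 0.057), and that of Adam10 without any library but cKO replicate 1 (up to 0.13). Psenen, at 54.8 FPKM in control and 45.9 FPKM in cKO, was not called (-0.25 ± 0.08 SE, adjusted limma p 0.062). Its groups overlapped, and the authors' deposited table called it lower at a log2 fold change of -0.31. Among 12 tested planar polarity partners of the Celsr cadherins, Fzd6, a Frizzled receptor, rose from 3.61 to 6.23 FPKM (0.65 ± 0.05 SE, adjusted limma p 0.00040). The other 11 were not called, Vangl2, Fzd3 and Dvl3 among them. All cKO values of Dvl3 lay below its control values, and the authors' deposited table called it lower at a log2 fold change of -0.18.

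Of 11 tested genes with cadherin repeats outside the family names or acting on them, 4 rose and none fell, with a median of 0.14. They were the giant cadherins Fat4 (1.64 to 2.22 FPKM, adjusted limma p 0.025) and Fat1 (11.1 to 12.5 FPKM, 0.035), Dchs1, the ligand of Fat4 (12.4 to 14.4 FPKM, 0.026), and Fjx1, a relative of the kinase that modifies such cadherins (19.6 to 23.1 FPKM, 0.028). Calls were lost for Fat4 without control replicate 2 or 3 or cKO replicate 2 or 3 (adjusted limma p up to 0.091), for Dchs1 without any library but cKO replicate 1 (up to 0.099), for Fjx1 without any but control replicate 3 (up to 0.088) and for Fat1 without any but control replicate 1 (up to 0.097). Fat2, the Fat cadherin known from granule cells, measured 3.37 FPKM in control and 2.92 FPKM in cKO and was not called.

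Of 14 tested signalling partners of protocadherins 3 rose and 1 fell. The WAVE gene Wasf2 rose from 11.8 to 15.5 FPKM (adjusted limma p 0.0040) while its paralog Wasf3 fell from 24.3 to 20.9 FPKM (0.013), and the collagen receptor kinase Ddr1 (54.9 to 63.7 FPKM, 0.019) and Cyfip1, a WAVE subunit (9.67 to 11.1 FPKM, 0.036), rose. Calls were lost for Wasf3 without cKO replicate 2 (adjusted limma p 0.062), for Ddr1 without control replicate 2 or cKO replicate 2 (up to 0.071) and for Cyfip1 without any library but control replicate 2 (up to 0.11).

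Of 19 chromatin regulators of the clustered protocadherins, 3 rose and none fell, with a median of 0.07. They were the DNA methyltransferase Dnmt3a (5.94 to 7.25 FPKM, adjusted limma p 0.014), the repressor Rest (2.18 to 2.96 FPKM, 0.018) and the cohesin release factor Wapl (15.6 to 17.5 FPKM, 0.035). Ctcf, whose protein binds the promoters and enhancers of these arrays, measured 47.4 FPKM in control and 48.5 FPKM in cKO, and the cohesin gene Rad21 138 and 136 FPKM. Neither was called. The call of Rest was lost without control replicate 2 or cKO replicate 3 (adjusted limma p up to 0.059), and that of Wapl without any library but cKO replicate 1 (up to 0.11). Of the genes named in these 6 lists, Ptprm, Fzd6, Wasf2 and Dnmt3a kept their calls when any 1 library was left out.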

How the data were processed

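Paired-end libraries were made from poly(A) RNA with dUTP in the second strand, per the labels' protocols. Per the submitters' processing notes, HISAT2 2.2.1, StringTie 2.1.6, cutadapt 1.9, edgeR and DESeq2 were used with mm10, in unstated roles. For the annotation, and for whether counting used strand, the answer is not given in the sources used here.

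The authors deposited 1 table for P3 with FPKM values of 6 libraries and gene lengths. The columns of the second prefix were taken as cKO because the others are named WT and no other P3 samples exist in the labels. To recover reads, FPKM values were multiplied by length and divided by a step fitted for each library to these same values. Of the results 100.0% were whole numbers of reads within 0.02. The table also holds the authors' mean signal, log2 fold change, test score and p-values, per the file headers. Positions are printed as deposited and do not match GRCm38, the build of the promoter windows. Their build is not stated, although the processing notes name mm10.

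Tests used limma 3.58.1 in R 4.3.3 on log2(FPKM + 1) with an intensity trend and no covariates, for every gene whose mean reached 1 FPKM. The fit was also run on simulated counts with independent libraries and the same extra spread for every gene. That run does not give the error rate in these data. The rule named Znhit3, each called member, the 3 most abundant members of each class, tested X-linked members and up to 3 called genes of each partner list by smallest p. Fat1, Cyfip1, the marker genes and the members beyond the rule were named after their values were seen. The members and lists were chosen with earlier results of these data known, and the muscle and epithelium lists after values were seen. Same-numbered control and cKO libraries did not deviate together, and no 2 libraries of a group agreed within counting noise (chi-square per degree of freedom of at least 4.38). Promoters are from RefSeq, and shared exons from GENCODE on GRCm38. Alternatives were another pseudocount, other filters and scalings, no trend, array weights, voom on the recovered reads, a replicate block and leaving out each library.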

Additional observations from a re-analysis of the deposited data

How the results depend on the processing

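With a replicate block, which pairs libraries of equal number, 1073 genes were called higher and 469 lower, against 1813 and 777 without it, and 8 and 1 of the cadherin superfamily genes, against 9 and 2. Cdh24, Pcdh10 and Pcdhga3 lost their calls and Pcdh18 gained one. The correlations of same-numbered libraries over all tested genes were -0.02, 0.04 and -0.10. The labels do not say whether the numbers pair the libraries, and a pairing that moves only some genes would not show in these correlations.

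Without a filter on low values 887 genes were higher and 384 lower, and 5 and 1 family members, as Cdh24, Pcdh10, Pcdh19, Pcdh20 and Pcdhga3 lost their calls (adjusted limma p 0.052 to 0.081). With a mean of at least 5 FPKM 1126 genes were higher, and 2 and 1 family members of 12 tested. Quantile normalization gave 1083 genes higher, array weights 1173 lower, and voom on the recovered reads 14 family members higher. Leaving out 1 library gave 859 to 1487 genes higher and 348 to 708 lower, and 5 to 10 and 1 to 2 family members, with the fewest members without cKO replicate 2. The cause of these shifts was not tested, except that fewer libraries or genes entered some fits.

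Cdh1, Cdh5, Cdh15, Pcdh1, Pcdh8 and Pcdh12 kept their calls under every setting that tested them. Of 741 values for 45 named genes other than Znhit3, 107 lost and 10 gained a call, and 14 changed sign, each of a gene not called in either fit. The difference of Pcdhb17 (-0.01) became 0.017 with TPM scaling and 0.0041 with array weights. That of Pcdhgc4 (-0.01) became 0.018 with TPM scaling and 0.0081 with voom, and that of Pcdh9 (0.02) became -0.067 with quantile normalization. Leaving out 1 library gave -0.061 to 0.024 for Pcdhb17, above 0 without cKO or control replicate 1, and -0.079 to 0.039 for Pcdhgc4, above 0 without cKO replicate 2 or 3 or control replicate 2. It gave -0.19 to 0.014 for Pcdhb9, above 0 without control replicate 3, and -0.040 to 0.096 for Pcdh9, below 0 without control replicate 2 or 3 or cKO replicate 1. The cause of these changes of sign was not tested. The difference of Znhit3 was -0.91, and -1.07 to -0.88 in the alternatives. Depth limits the alpha protocadherins and the other cadherins most, where 12 of 13 and 9 of 11 genes had under 1 FPKM.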
